A study of Homo sapiens with 4 samples.

Results

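The 10 genes described here, KLF2, KLF3, KLF4, KLF5, KLF6, KLF7, KLF9, KLF10, KLF11 and KLF13, encode Kruppel-like factors, and every probe set that the platform annotation gives to 1 of them was taken. There were 32 such probe sets among the 54613 of the array that are not controls, and the 10 genes are among 19775 with a usable probe set. RNA came from SKOV3, an established human ovarian carcinoma cell line. Control cells were left without rhSTIP1, and the other cells were treated with rhSTIP1, read as recombinant human STIP1, a cochaperone of HSP70 and HSP90. Each group had 2 arrays. Neither the dose of rhSTIP1 nor its duration is given in the sources used here. Both groups are the same line, and no other agent or genotype is named. Whether arrays of 1 group stem from different cultures is not stated, so a p-value measures only how these samples spread, which may be technical.

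Kruppel-like factors bind GC-rich and CACC-type DNA through zinc fingers at the C terminus, and the part of the protein outside the fingers decides which cofactors are recruited. Several of their genes are switched on within minutes to hours of a stimulus to the cell, KLF10 and KLF11 by TGF-beta and KLF2 and KLF4 by the kinase ERK5 acting through MEF2 factors. In carcinoma cells KLF4 and KLF6 are known mainly as brakes on the cell cycle and KLF5 as a promoter of growth. The series title names the SMAD1/5 pathway (written SAMD1/5), and the comparison asks which of these factors had a different transcript level after rhSTIP1.

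The deposited values are MAS5 signals, linear probe set intensities scaled by array. Where a gene had several probe sets, the brightest on average stood for it, and fold changes are differences of log2(signal + 16), which understates the change of dim probe sets. The ± values are standard errors from limma fitted over the 12296 genes whose mean signal reached 69.4, the median over probe sets; all 10 Kruppel-like factors reached it. The median signal was 66.0 on control array 1, 79.2 on control array 2 and 69.0 on each rhSTIP1 array. The ACTB 3′ to 5′ ratio, which rises when RNA is degraded, was 8.79 on rhSTIP1 array 2 and between 2.45 and 2.74 on the other arrays. The same ratio for GAPDH differed far less, at 1.32 on rhSTIP1 array 2 and between 0.99 and 1.16 on the other arrays. Whether the RNA of that array was degraded was not tested, nor was the part of the ACTB ratio in the results. Values without that array are given below. The epithelial and ovarian carcinoma markers were all at or above the floor (7 of 7), with summed signals of 42153 to 43873 in the controls and 47245 to 47404 with rhSTIP1. Of the endothelial markers 1 of 4 reached it (PECAM1), with sums of 170 to 203 and 169 to 308, and CDH5 stood between 1.89 and 4.98. None of the 3 leukocyte markers with a probe set did (PTPRC, CD3E and CD14, sums of 77.1 to 86.6 and 66.5 to 191). Of the fibroblast markers 1 of 4 did (DCN, sums of 212 to 286 and 158.6 to 204).

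The family did not move one way. KLF10 and KLF7 were higher on both rhSTIP1 arrays than on either control, with group means at least 1.5-fold apart, and KLF6 was lower on both with means at least that far apart. For KLF4 and KLF13, higher on both, and KLF5, lower on both, the group means of the representing probe sets differed by less than 1.5-fold. Single arrays could differ by less or more than the means: rhSTIP1 array 2 minus control array 2 was 0.40 for KLF7 and −0.28 for KLF6 on the log2 scale, and rhSTIP1 array 1 minus control array 1 was 0.68 for KLF13 and −1.06 for KLF5. KLF2, KLF3, KLF9 and KLF11 had overlapping groups. The arrays measured whole cultures, so a change in a subset of cells and a change in every cell cannot be told apart.

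**Figure D1:**
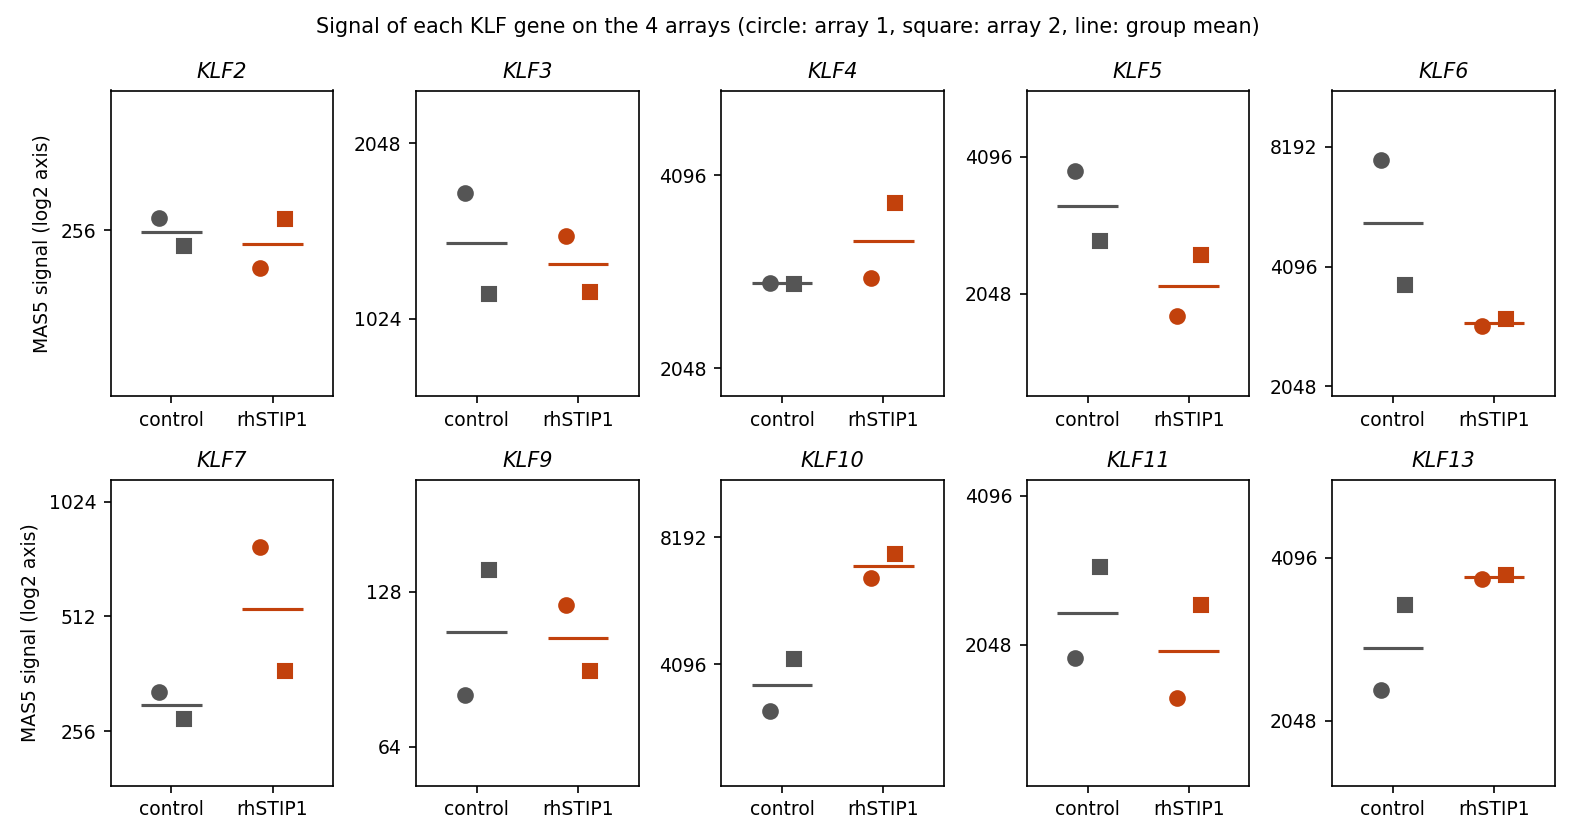
MAS5 signal (log2 axis, a separate scale in each panel) of the representing probe set of each of the 10 Kruppel-like factor genes on the 2 control and 2 rhSTIP1 arrays. Circles are array 1 and squares array 2 of each group, and the lines are group means taken on the log2(signal + 16) scale. The groups do not overlap for KLF4, KLF7, KLF10 and KLF13 (higher with rhSTIP1) and for KLF5 and KLF6 (lower).

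KLF10, also called TIEG1, is the TGF-beta-inducible repressor of the family. Its only probe set, 202393_s_at, had signals of 3163 and 4203 in untreated cells against 6569 and 7473 in treated cells. Both rhSTIP1 arrays lay above both controls, and the gap between the nearest arrays was wider than the gap within either group. The log2 fold change was 0.94 ± 0.23, or 1.92-fold, with a 95% interval of 0.41 to 1.47 (limma, adjusted p = 0.702 over all genes, the lowest among the members). Array 1 of rhSTIP1 lay 1.05 above control array 1 on the log2 scale and array 2 lay 0.83 above control array 2. Leaving out 1 array at a time gave 0.74 (control array 1 dropped) to 1.14 (control array 2 dropped).

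KLF11, or TIEG2, is the closest relative of KLF10 and is also known as a TGF-beta-inducible repressor. Probe set 218486_at had signals of 1924 and 2942 in untreated cells against 1597 and 2470.1 in treated cells. Array 2 was the brighter one in both groups, and the groups overlapped. The log2 fold change was −0.26 ± 0.31, with an interval of −0.99 to 0.47, so neither no difference nor a fall by nearly 1.0 on that scale lies outside it. It was 0.05 without control array 2 and also 0.05 without rhSTIP1 array 1, and −0.57 without rhSTIP1 array 2. A dim second probe set had 94.3 and 126 in untreated cells against 68.9 and 76.0 in treated cells, lower on both rhSTIP1 arrays by −0.50 ± 0.37.

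KLF9 and KLF13 recruit the corepressor SIN3A, as KLF10 and KLF11 do. KLF13, known as an activator of CCL5 in T lymphocytes, was read by 225390_s_at, with signals of 2329.7 and 3351 in untreated cells against 3745 and 3803 in treated cells. Both rhSTIP1 arrays were above both controls, by 0.43 ± 0.25 (adjusted p = 0.999, limma), and the controls differed from each other by 0.52. Its log2 fold change was 0.17 when control array 1 was left out and 0.69 when control array 2 was. Of the other KLF13 probe sets 1 was tested, at 0.53 ± 0.48 with overlapping groups, and 2 were under the floor. KLF9, which is induced by glucocorticoid and thyroid hormones, was dim. Probe set 203543_s_at had signals of 80.7 and 141 in untreated cells against 121 and 89.6 in treated cells, so that the controls bracketed both rhSTIP1 arrays. The log2 fold change was −0.04 ± 0.40, it was above 0 with median centring and with quantile normalization, and 3 of the 5 probe sets lay under the floor.

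KLF6 belongs to the members that act chiefly as activators through acetyltransferases, and it is known as a tumour suppressor with several splice forms. Probe set 1555832_s_at had signals of 7578 and 3685 in untreated cells against 2893 and 3028 in treated cells. Both rhSTIP1 arrays were below both controls, but control array 1 stood far above the other 3 arrays. The log2 fold change was −0.83 ± 0.34, or 1.78-fold lower, with an interval of −1.62 to −0.05 (limma, adjusted p = 0.999). It was −0.31 when control array 1 was left out and −1.35 when control array 2 was. All 4 tested probe sets of KLF6 had values below 0, from −1.29 to −0.74, and for 3 of them the groups did not overlap. The fourth, 208960_s_at, had 1979.6 and 693 in untreated cells against 720 and 304 in treated cells, so that control array 2 lay just below rhSTIP1 array 1. These probe sets read the same gene on the same arrays and are not replicates of each other.

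KLF5, which drives growth of epithelial cells, was read by 209211_at at 3816 and 2671 in untreated cells against 1826 and 2491 in treated cells. The nearest arrays of the groups, control array 2 and rhSTIP1 array 2, differed by only 0.10 on the log2 scale. The log2 fold change was −0.58 ± 0.28 (1.49-fold lower, just under the 1.5-fold limit), with an interval of −1.22 to 0.07. The second probe set, 209212_s_at, gave 1881 and 2371 in untreated cells against 1057 and 1496 in treated cells, lower by −0.74 ± 0.28, just past the limit. With 1 array left out the first probe set ran from −0.83 (control array 2 dropped) to −0.32 (control array 1 dropped).

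KLF7, known for its role in the outgrowth of axons, had signals of 325 and 276 in untreated cells against 779 and 368 in treated cells. The rhSTIP1 arrays were both higher but differed from each other by more than the lower of them differed from the controls. The log2 fold change was 0.81 ± 0.37, or 1.75-fold, with an interval of −0.05 to 1.67 (limma, adjusted p = 0.999). It was 0.28 when rhSTIP1 array 1 was left out, with a difference under 1.5-fold, and 1.33 when rhSTIP1 array 2 was. The suffix of this probe set, 240432_x_at, marks probes that can also bind other transcripts. Probe set 204334_at had 228 and 439 in untreated cells against 532 and 503 in treated cells, higher by 0.68 ± 0.34 with groups apart. Of the other 3 KLF7 probe sets, 1555420_a_at had 0.58 with overlapping groups and 238482_at 0.30 with groups apart. The dimmest, 238517_at, had 59.9 and 68.7 in untreated cells against 122 and 63.9 in treated cells; it reached the floor only through rhSTIP1 array 1, so its sign carries no weight.

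KLF2 and KLF4, known from the endothelium, where they keep vessels quiescent and raise thrombomodulin, showed smaller differences. KLF4, also a pluripotency factor, was read by 221841_s_at at 2783 and 2774 in untreated cells against 2829 and 3705 in treated cells. The controls were nearly equal and rhSTIP1 array 1 lay only just above them, so the log2 fold change of 0.22 ± 0.23 came mostly from rhSTIP1 array 2 and was 0.03 without it. The second KLF4 probe set had 285 and 194 in untreated cells against 349 and 305 in treated cells, higher by 0.44 ± 0.30. For KLF2, 219371_s_at gave 265.8 and 244 in untreated cells against 227 and 265.5 in treated cells, a log2 fold change of −0.05 ± 0.28 with an interval of −0.69 to 0.59, and the groups overlapped. It was 0.01 with median centring. Its other probe set was dim throughout, at 26.0 and 35.3 in untreated cells against 5.10 and 4.95 in treated cells, and was not tested. With that probe set averaged in, the log2 fold change of KLF2 was −0.60 and its groups were apart.

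KLF3 recruits the corepressor CTBP and acts as a repressor in red cell precursors and fat cells. Probe set 225133_at had signals of 1684 and 1129 in untreated cells against 1421 and 1139 in treated cells, and the log2 fold change was −0.11 ± 0.28 with overlapping groups. All 4 of its probe sets were tested and lay below 0, from −0.32 to −0.06, and the groups were apart for 1. Without control array 1 the representing probe set was at 0.17.

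Of the 10 genes 4 were higher on both rhSTIP1 arrays without overlap, against 14.0% of all genes tested, and 2 were lower without overlap, against 14.9%. With group means also at least 1.5-fold apart these counts were 2 higher (KLF7 and KLF10, against 1.90% of genes) and 1 lower (KLF6, against 3.79%). Before adjustment KLF10 was the only member higher at p under 0.05, where 1.04% of genes were, and KLF6 the only one lower, where 2.64% were. After Benjamini-Hochberg adjustment limma called 0 of the 10 members and 0% of the 12296 genes, of which 452 had an unadjusted p under 0.05. The median log2 fold change of the 10 genes was −0.04 and that of all genes 0.02, while the median size of the change, sign aside, was 0.35 against 0.17. For 1 gene, the smallest two-sided p that exact permutation of 4 arrays can reach is 0.333.

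Over probe sets, 25 of the 32 reached the floor and 7 did not. Of the 25, 3 were higher by at least 1.5-fold without overlap (2 of KLF7 and that of KLF10), against 2.07% of the 27307 probe sets tested. Another 4 were lower (3 of KLF6 and 1 of KLF5), against 4.35%. The fit over probe sets called 0 of them and 0% of all probe sets, of which 878 had an unadjusted p under 0.05. Every gene with more than 1 tested probe set except KLF9 had them all on the same side of 0, counting the KLF7 probe set that reached the floor through 1 array.

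**Figure D2:**
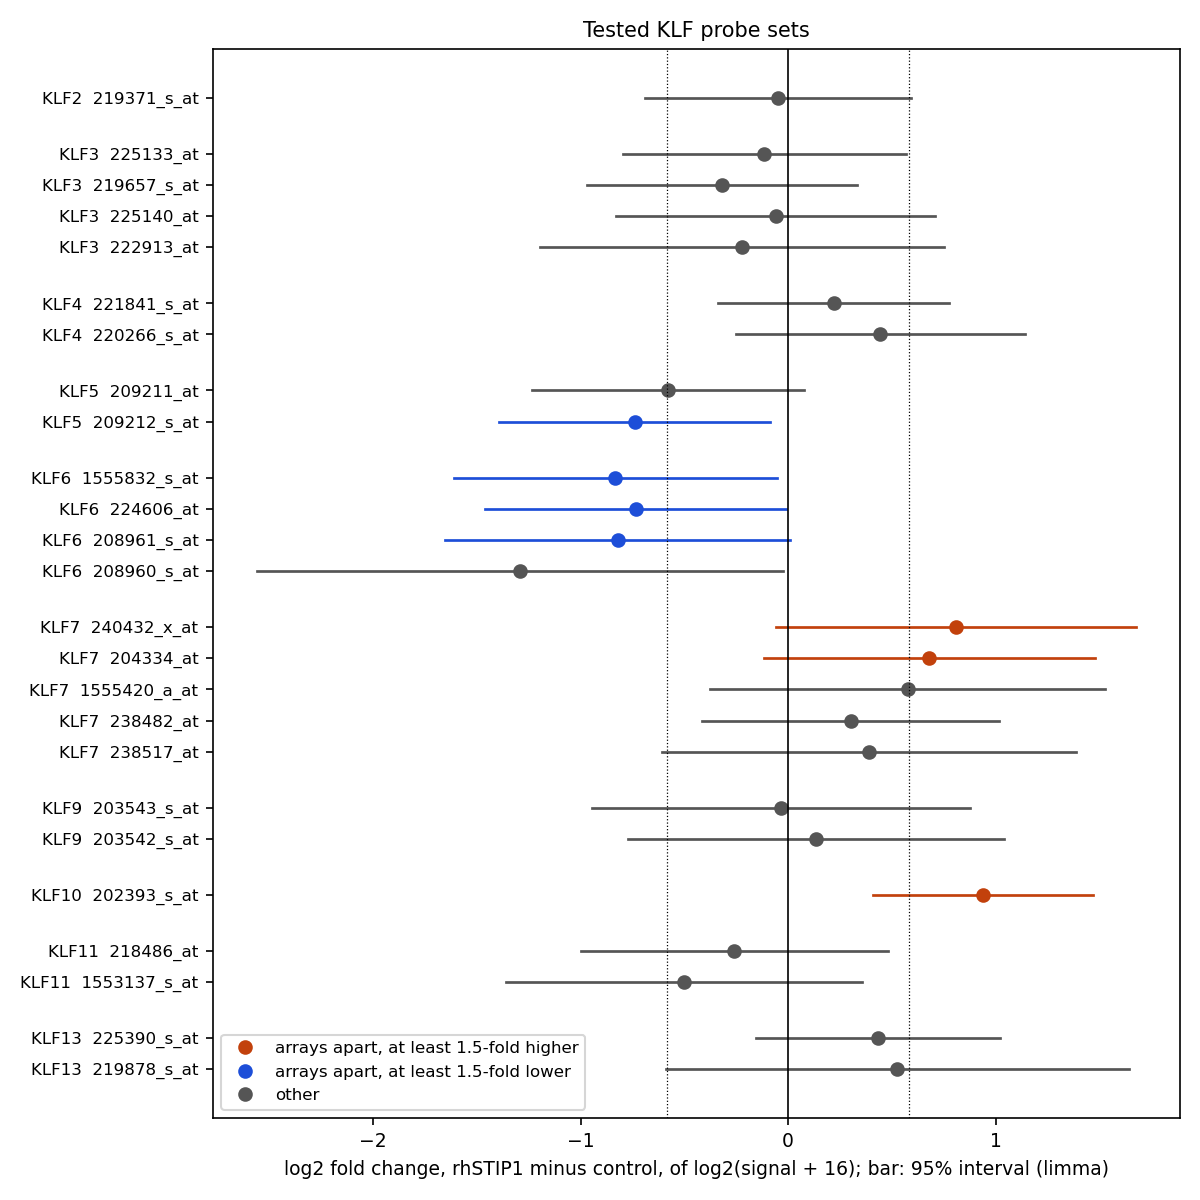
Log2 fold change (rhSTIP1 minus control, of log2(signal + 16)) of the 25 tested probe sets of the Kruppel-like factor genes, with the 95% interval from limma fitted over 27307 probe sets. Dotted lines mark 1.5-fold, orange marks probe sets higher and blue probe sets lower by at least that much without overlap. The 4 tested probe sets of KLF6 all lie left of 0; of the 5 of KLF7, right of it, 238517_at was tested only through rhSTIP1 array 1.

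Leaving out arrays changed the members unequally. Counting genes apart by at least 1.5-fold in either direction, there were 2 of the 10 without control array 1 (KLF7 and KLF10), where 8.64% of all tested genes were, and 5 without control array 2 (KLF5, KLF6, KLF7, KLF10 and KLF13), where 16.1% were. There were 2 without rhSTIP1 array 1 (KLF6 and KLF10), against 12.6%, and 4 without rhSTIP1 array 2 (KLF5, KLF6, KLF7 and KLF10), against 11.6%. KLF10 was among them each time, which was fixed beforehand, as its nearest arrays (4203 and 6569) already lay more than 1.5-fold apart. Without rhSTIP1 array 2, the array with the high ACTB ratio, the log2 fold changes were 0.85 for KLF10, 1.33 for KLF7, 0.42 for KLF13, 0.03 for KLF4, −0.80 for KLF5 and −0.87 for KLF6. With 1 array left out fewer values need to be apart, and the single array that remains is taken to vary as the other group does. No member passed limma's adjusted test in any of these 4 fits, and the lowest adjusted p was 0.14, for KLF6 without control array 2.

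**Figure D3:**
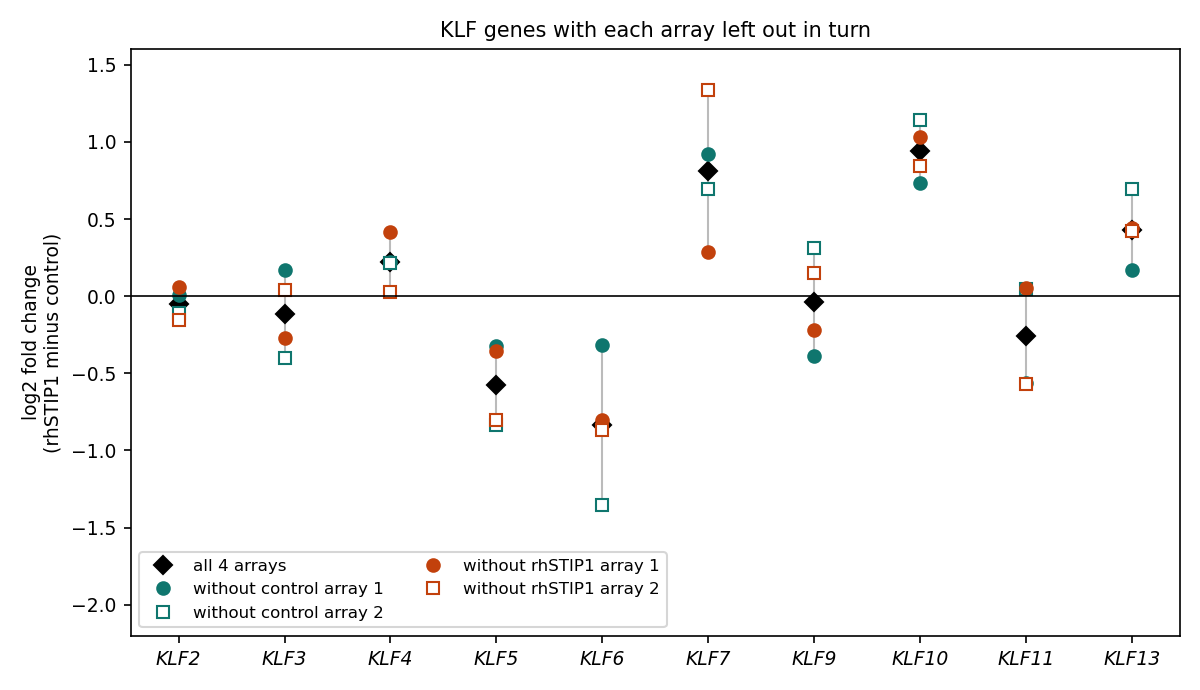
Log2 fold change (rhSTIP1 minus control) of each Kruppel-like factor gene with all 4 arrays (diamonds) and with each array left out in turn (circles: array 1 left out, squares: array 2 left out; teal: control, orange: rhSTIP1). KLF10 stays between 0.74 and 1.14, whereas KLF6 runs from −1.35 to −0.31 and KLF7 from 0.28 to 1.33.

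The promoters of the genes with a probe set apart by at least 1.5-fold are shown because those genes differed in opposite directions. Sequences are RefSeq's for GRCh38.p14, the 250 bases before a transcript start on the gene's strand; 8 of the 10 genes had 13 such windows, and none was used for KLF3 or KLF10. For genes with several starts the window with the most matches is printed. Capitals mark matches, on either strand, to the GC box GGGCGG, the CACCC element, the SMAD palindrome GTCTAGAC, the GC-rich SMAD1/5 element GGCGCC, the cyclic AMP element TGACGTCA and the CArG box of serum response factor. KLF6 lies on chromosome 10 (chr10:3785210-3785459, minus strand), KLF5 on chromosome 13 (chr13:73058755-73059004, plus strand) and KLF7 on chromosome 2 (chr2:207166857-207167106, minus strand).
KLF6: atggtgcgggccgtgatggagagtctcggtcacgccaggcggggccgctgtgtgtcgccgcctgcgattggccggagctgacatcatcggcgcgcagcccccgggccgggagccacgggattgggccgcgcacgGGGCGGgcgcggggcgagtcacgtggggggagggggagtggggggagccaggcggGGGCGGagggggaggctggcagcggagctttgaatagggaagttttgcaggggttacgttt
KLF5: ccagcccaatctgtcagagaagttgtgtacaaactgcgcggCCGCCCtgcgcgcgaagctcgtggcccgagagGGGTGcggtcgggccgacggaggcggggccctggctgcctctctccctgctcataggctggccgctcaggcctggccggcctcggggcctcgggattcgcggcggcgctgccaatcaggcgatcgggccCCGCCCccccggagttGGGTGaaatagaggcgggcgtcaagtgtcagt
KLF7: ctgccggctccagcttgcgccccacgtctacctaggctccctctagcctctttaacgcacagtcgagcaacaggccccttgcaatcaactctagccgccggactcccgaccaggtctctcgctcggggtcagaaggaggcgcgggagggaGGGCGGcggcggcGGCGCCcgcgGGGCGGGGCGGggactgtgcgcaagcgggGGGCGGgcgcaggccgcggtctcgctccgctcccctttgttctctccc

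The window of KLF6 held 2 GC boxes, that of KLF5 2 GC boxes and 2 CACCC elements, and that of KLF7 4 GC boxes, of which 1 pair overlaps, and 1 GGCGCC. Over the 13 windows 8 held a GC box, against 42.64% of the 35116 promoter windows of that length in the table, and 6 held CACCC, against 54.71%. GGCGCC was in 1 window (KLF7), against 16.38%, the CArG box in 1 (another KLF7 start), against 1.16%, and TGACGTCA in 1 (KLF11), against 1.65%. GTCTAGAC was in 0 of the 13, against 0.18%. A match is a description of letters only, and GC boxes were in windows of genes that were higher (KLF4, KLF7, KLF13) and lower (KLF5, KLF6) alike.

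The other genes around the family were read from lists chosen with earlier results of these data known, so their counts are descriptive only. Of the 16 other KLF and SP family genes 6 were tested, 1 above and 5 below 0, with a median log2 fold change of −0.15 and none apart by 1.5-fold. They were led by KLF16 (−0.31 ± 0.24), SP2 (−0.24 ± 0.23) and SP1 (−0.18 ± 0.21), and the first 2 were above 0 when all probe sets of a gene were averaged. Of 12 upstream regulators 11 were tested, 6 above and 5 below 0, with a median of 0.08 and none apart by 1.5-fold. The TGF-beta receptor TGFBR1 had 0.35 ± 0.23, the transducer SMAD4 −0.36 ± 0.27 and the serum response partner ELK1 0.33 ± 0.26, and TGFBR1 and SMAD4 took the other sign when probe sets were averaged. All 15 cofactors and ubiquitin ligases were tested, 8 above and 7 below 0, with a median of 0.01 and none apart by 1.5-fold. SIAH1, a ubiquitin ligase, had −0.32 ± 0.23, the acetyltransferase EP300 −0.30 ± 0.23 and the acetyltransferase KAT2B 0.30 ± 0.26.

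Of 25 described target genes of Kruppel-like factors 17 were tested, 11 above and 6 below 0, with a median of 0.09 against 0.02 over all genes. The arrays were apart by at least 1.5-fold for 3, with 2 higher, against 1.90% of all tested genes, and 1 lower, against 3.79%. THBD (thrombomodulin), a target of KLF2 and KLF4, had 146 and 253 in untreated and 821 and 725 in treated cells, a difference of 1.92 ± 0.31. SMAD7, the inhibitory SMAD that KLF10 and KLF11 are described to repress, had 695 and 564 in untreated and 1804 and 1615 in treated cells, a difference of 1.42 ± 0.24. CDKN1B, the cell cycle inhibitor p27, had 4593 and 3071 in untreated cells against 2797 and 1498 in treated cells, −0.87 ± 0.35. Its log2 fold change was −0.42, under 1.5-fold, without rhSTIP1 array 2, the array with the high ACTB ratio, −0.58 without control array 1 and −1.32 without rhSTIP1 array 1. Without rhSTIP1 array 2 THBD was at 2.00 and SMAD7 at 1.503. The groups of both genes did not overlap, so leaving out an array could not change the sign. The median of the 17 targets was 0.29 without that array and 0.25 without control array 1, and 0.03 without rhSTIP1 array 1 and 0.01 without control array 2. None of the 3 passed after adjustment (adjusted p of 0.528, 0.528 and 0.999, limma).

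Of 12 early response genes outside the family 11 were tested, 9 above and 2 below 0, with a median of 0.34. FOSB reached the floor only through the rhSTIP1 arrays, with 18.6 and 6.12 in untreated cells and 444 and 137 in treated ones, so it is given by its signals only. Over the other 10, whose mean reached the floor in both groups, 8 were above and 2 below 0, and the median was 0.32. Of these 10, 3 (JUNB, NR4A1 and DUSP1) were higher by at least 1.5-fold without overlap, against 1.90% of all tested genes. Those lower numbered 0, against 3.79%. Both shares are over genes whose mean over the 4 arrays reached the floor, without the floor required in each group. NR4A1 had 93.9 and 123 in untreated cells against 395 and 144 in treated cells, a difference of 1.05 ± 0.47. Its interval was −0.05 to 2.14, and rhSTIP1 array 2 lay only 0.19 above control array 2. JUNB had 799 and 714 in untreated and 1704 and 1522 in treated cells, a difference of 1.08 ± 0.23. DUSP1 had 2529.8 and 3104 in untreated cells against 3705 and 7040.4 in treated cells, a difference of 0.86 ± 0.32, which was 0.40 without rhSTIP1 array 2 and −0.04 when probe sets were averaged.

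The rhSTIP1 arrays differed from each other in this list. EGR1, FOS, JUN and IER2, picked after their values were seen, were below both controls on rhSTIP1 array 1 and above both on array 2; EGR1 had 3471 and 3055 in untreated cells against 1942 and 8252 in treated cells. The summed signal of the list was 37852 and 33817 in untreated cells and 35531 on rhSTIP1 array 1, but 54322 on rhSTIP1 array 2. That array also had the ACTB ratio of 8.79. Without it the median of the 11 genes was 0.12, with 7 above and 4 below 0, and without rhSTIP1 array 1 it was 0.69, with all 11 above 0.

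**Figure D4:**
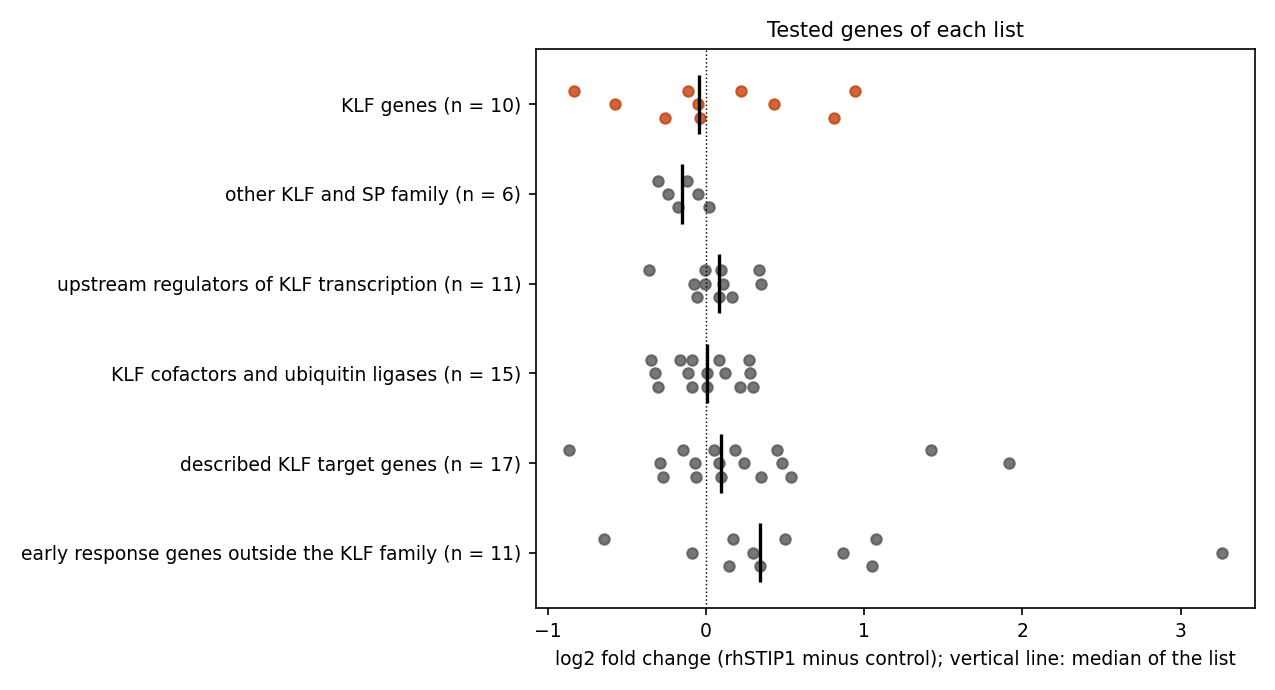
Log2 fold change (rhSTIP1 minus control) of the tested genes of each list, 1 point a gene with the vertical offset only for legibility, and the median as a vertical line. The 10 Kruppel-like factor genes spread from −0.83 to 0.94 around a median of −0.04, and the 11 early response genes have a median of 0.34 (0.12 without rhSTIP1 array 2). FOSB, the point farthest right, was tested only through its rhSTIP1 arrays.

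Over the 4 arrays, the tested genes whose log2 profile, centred on the gene's mean, was nearest to that of KLF10 were ROPN1L (Euclidean distance 0.06), ZNF571-AS1 (0.14), GSTO2 (0.16) and CPEB2 (0.17). ROPN1L (38.2 and 52.7) and ZNF571-AS1 (41.0 and 60.9) were under the floor on both control arrays and were tested only through their rhSTIP1 signals, so their likeness to KLF10 was favoured by the filter. CPEB2 had signals of 1857 and 2489 in untreated cells against 3503 and 3886 in treated cells.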

How the data were processed

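RNA of 4 SKOV3 samples (2 control, 2 rhSTIP1, grouped by title) was extracted with TRIZOL and biotin-labelled, per the labels' protocols. The authors deposited linear intensities; the submitters' processing notes name MAS5 and Affymetrix Expression Console 1.1. MAS5 scales each array, and the mean after trimming 2% of probe sets at each end was equal on all arrays (499.9). Of 54613 probe sets other than controls, 41091 had exactly 1 symbol in the platform annotation. No detection calls were used, so dim signals could not be told from background, and the number of arrays limits the precision.

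Each gene was represented by its brightest probe set and tested where the mean reached 69.4. Groups were compared on log2(signal + 16) with lmFit and eBayes (intensity trend) of limma 3.58.1 in R 4.3.3, two-sided, with Benjamini-Hochberg adjustment over 12296 genes, and likewise over 27307 probe sets. The fit was also run on simulated data, with arrays drawn independently and effects larger than that of any member. That run therefore does not bear on the values of the members. Named were all members, the 3 genes of each list with the smallest unadjusted p, markers and the 4 genes nearest to KLF10; PECAM1, CDH5 and DCN were singled out among the markers after their values were seen. Members and lists were chosen with earlier results of these data known. Alternatives covered the pseudocount, floor, scaling, trend, probe set choice, replicate number as a block and each array left out; the lists with each array left out, and with the floor required in both groups, were added after seeing the data.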

Additional observations from a re-analysis of the deposited data

How the results depend on the processing

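Across 13 alternatives the 10 genes had 128 values. Of these, 114 kept their direction and their side of the threshold, 12 changed sign and 2 crossed the threshold. KLF2 and KLF9 lay under the floor at the 70th percentile and have no value there. With no floor, the higher floor, no intensity trend or the replicate block, each fold change stays as it was, so no sign could change. Nor could it with 1 array left out for KLF4, KLF5, KLF6, KLF7, KLF10 and KLF13, whose groups do not overlap. Much of the count of 114 was therefore fixed beforehand. Leaving out 1 array in turn gave log2 fold changes of −0.16 to 0.057 for KLF2, −0.40 to 0.17 for KLF3, −0.39 to 0.31 for KLF9 and −0.57 to 0.054 for KLF11. Median centring gave 0.013 for KLF2 and 0.025 for KLF9, quantile normalization 0.0049 for KLF9, and the mean of the probe sets 0.25 for KLF9. That mean also turned KLF16 (0.22), SP2 (0.22), TGFBR1 (−0.36), SMAD4 (0.19) and DUSP1 (−0.041). Counts of KLF genes apart by at least 1.5-fold ran from 2 to 5 with 1 array left out and of KLF probe sets from 6 to 11, both highest without control array 2. Genes passing limma's adjusted test numbered 0 in the main setting, 1 with the floor at the 70th percentile and 0 to 6 with 1 array left out; probe sets numbered 0, and 1 to 7 with 1 array left out. The cause was not tested. With the replicate block, which leaves 1 residual degree of freedom, 247 genes and 261 probe sets passed. Among them were KLF10 (limma, adjusted p = 0.0025) and KLF6 (limma, adjusted p = 0.0428). In that fit over genes limma added 18.99 prior degrees of freedom, pooled over genes, against 5.56 in the main setting, so these p-values rest mostly on the pooled spread. Arrays of the same number deviated together (r = 0.36 across genes, which are not replicates). With 2 pairs and no label saying what the numbers share, whether such arrays are paired is not known. Dim signals and 2 arrays a group limit every value.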
